A study of Mus musculus with 8 samples.

Results

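Microglia of brain tumours were described here across the genes they express. They were taken from the 2 brain libraries of a series of allografts, as cells with at least 500 detected genes, at most 10% mitochondrial UMIs (unique molecular identifiers, each standing for 1 captured RNA molecule), less than 0.2% of UMIs from eGFP and Mycl, and at least 3 UMIs summed over P2ry12, Tmem119, Gpr34 and Cx3cr1. The rule found 592 cells among the 38460 deposited cells of the series, 480 of 3742 in brain replicate 1 and 112 of 4618 in brain replicate 2. The cells were chosen by the measured levels of those 4 genes, of eGFP and of Mycl, so these levels are given as a description and were not tested.

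The tumours grew from N2N1G, a line of murine small cell lung cancer cells, a neuroendocrine cancer that often spreads to the brain. They were started with 1000000 cells each, collected 3 weeks after transplantation, dissociated, sorted for healthy cells and profiled by droplet 3' RNA sequencing. For the brain (2 libraries) and the subcutaneous site (3 libraries) cells were injected directly, and for the liver (3 libraries) through the tail vein. The labels give neither strain, sex nor age of the mice and do not state the gate of the sort, so shares of cells are shares of what was sorted, and no tumour-free brain was analysed here. Cells at or above the eGFP and Mycl limit are called eGFP and Mycl cells here; as the limit sets, 99.67% and 99.83% of them held an eGFP UMI in brain replicates 1 and 2, and 21.88% and 14.29% of the microglia did. The median microglia held 4207.5 and 3272.5 UMIs and 1667 and 1442.5 genes, against 7971.5 and 8409 UMIs in the eGFP and Mycl cells. The brain libraries shared 21 barcodes, within the range of 20 to 56 over the 28 pairs of libraries, and no barcode was that of a microglia in both, although 5 barcodes of replicate 1 microglia occurred among the cells of replicate 2.

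Microglia are the resident macrophages of the brain parenchyma. They settle there in early development, depend on signals through the receptor Csf1r and on TGF-beta, and survey the tissue with moving processes that carry the ADP receptor P2ry12 and the fractalkine receptor Cx3cr1. In injury, degeneration and tumours they are known to lose part of this surveying programme and to gain genes of lipid handling, lysosomes, cytokines and antigen presentation, while macrophages derived from blood monocytes enter the same tissue and resemble them.

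To show the sequences next to which these gene groups start, 6 promoters were chosen, 3 of microglia marker genes and 3 of interferon response genes. Each is the 250 bases before the gene's start in RefSeq (GRCm38.p6), printed 5′ to 3′ on the gene's strand. In the first set capitals mark AGGAAGT on either strand, a form of the site of PU.1 (encoded by Spi1), the factor that defines macrophages and microglia. It was found in the windows of 4 of the 12 matched microglia markers outside the rule (Sall1, Fcrls, C1qb and C1qc), in P2ry12 of the 2 matched rule genes, and in 8.80% of all 27025 genes with such windows.
P2ry12, chr3:59262986-59263235, minus strand: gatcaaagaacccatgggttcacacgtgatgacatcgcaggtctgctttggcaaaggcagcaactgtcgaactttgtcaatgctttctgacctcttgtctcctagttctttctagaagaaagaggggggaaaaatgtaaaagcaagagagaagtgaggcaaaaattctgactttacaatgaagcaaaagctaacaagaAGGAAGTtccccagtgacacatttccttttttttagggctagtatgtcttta
Fcrls, chr3:87263525-87263774, minus strand: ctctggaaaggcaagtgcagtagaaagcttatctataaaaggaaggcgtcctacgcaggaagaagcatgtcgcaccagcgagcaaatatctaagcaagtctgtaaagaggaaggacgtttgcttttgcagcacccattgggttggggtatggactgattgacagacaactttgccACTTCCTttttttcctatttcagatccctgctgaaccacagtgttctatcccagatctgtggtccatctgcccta
C1qb, chr4:136886201-136886450, minus strand: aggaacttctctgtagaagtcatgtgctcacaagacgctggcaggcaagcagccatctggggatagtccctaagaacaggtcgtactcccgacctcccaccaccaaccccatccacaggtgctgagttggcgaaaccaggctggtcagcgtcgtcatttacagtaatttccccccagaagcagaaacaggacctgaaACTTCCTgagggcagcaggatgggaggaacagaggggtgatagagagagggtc

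In the interferon set capitals mark TTTC followed after any 2 bases by TTTC, on either strand, the core of the element that interferon-activated factors bind. It was found in 9 of the 14 matched interferon response genes (Ifit1, Ifit3, Isg15, Bst2, Rsad2, Stat2, Oas1a, Cxcl10 and Ifi207) and in 3.46% of all genes with such windows. Isg15 was lower and Cxcl10 was higher in microglia than in other brain macrophages, as described further on, so genes with the same letters did not share a direction. The 3 matches of Isg15 form a run in which neighbouring matches overlap. A match is a description of letters, not of a bound site.
Isg15, chr4:156200819-156201068, minus strand: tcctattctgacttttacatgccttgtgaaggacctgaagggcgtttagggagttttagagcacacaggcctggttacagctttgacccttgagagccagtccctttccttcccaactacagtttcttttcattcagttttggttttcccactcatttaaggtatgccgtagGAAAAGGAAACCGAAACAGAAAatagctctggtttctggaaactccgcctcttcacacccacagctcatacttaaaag
Ifit3, chr19:34583279-34583528, plus strand: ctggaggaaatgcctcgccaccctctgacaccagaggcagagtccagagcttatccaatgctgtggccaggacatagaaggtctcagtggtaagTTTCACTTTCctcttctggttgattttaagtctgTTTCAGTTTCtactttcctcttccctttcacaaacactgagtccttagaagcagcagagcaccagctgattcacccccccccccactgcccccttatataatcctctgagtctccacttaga
Cxcl10, chr5:92348890-92349139, minus strand: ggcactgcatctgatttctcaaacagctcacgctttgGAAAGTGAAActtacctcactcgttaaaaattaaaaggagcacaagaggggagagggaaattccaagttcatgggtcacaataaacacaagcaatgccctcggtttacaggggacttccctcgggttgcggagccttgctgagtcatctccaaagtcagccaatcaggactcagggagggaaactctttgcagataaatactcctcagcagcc

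Microglia made up 14.2% (95% exact binomial interval 13.1 to 15.4) of the 3376 kept cells of brain replicate 1 and 2.54% (2.10 to 3.05) of the 4411 of replicate 2, where kept cells are those that met the limits on genes and mitochondrial UMIs. The interval covers counting error only. Among the cells under the eGFP and Mycl limit, microglia were 50.1% of 958 and 31.9% of 351. Outside the brain the same gate was met by 7 cells in all, none in liver replicates 1 and 3 (which allows shares of up to 0.0719% and 0.0624%), 1 in liver replicate 2 and 4, 1 and 1 in the subcutaneous libraries. A further 33 and 12 brain cells met the marker sum but lay at or above the eGFP and Mycl limit. P2ry12 UMIs were also found in 6.12% and 1.18% of the eGFP and Mycl cells, with a level of 16.2 and 4.11 CPM (counts of a gene per 1000000 UMIs of the class), against 2413 and 3149 CPM in microglia.

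The marker genes of the rule were broadly held. P2ry12 had a UMI in 92.5% and 93.75% of the microglia of replicates 1 and 2, Gpr34, a receptor for lysophosphatidylserine, in 89.2% and 84.8%, Cx3cr1 in 84.2% and 88.4%, and Tmem119 in 76.9% and 88.4%. All 4 were present in 304 and 80 cells, and Cx3cr1, which monocytes also express, was the lone marker in 7 and 0 cells. The median marker sum was 22 and 28 UMIs.

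Cells just inside the limit differed from the rest. In brain replicate 1, the 43 cells with a marker sum of 3 had 330 CPM of Sparc, a microglial gene for a matrix-binding protein, 6102 CPM of the MHC class II gene H2-Aa and 2195 CPM of Plac8, a gene of monocyte-derived cells. The 61 cells just outside, with a sum of 2, had 245, 6860 and 2850 CPM, and the 331 cells with a sum of 10 or more had 2762, 478 and 57.9 CPM. Brain replicate 2 gave 289, 5164 and 1115 CPM at a sum of 3 (7 cells), 91.1, 7220 and 569 CPM at a sum of 2 (12 cells) and 4269, 69.0 and 23.0 CPM at 10 or more (82 cells). In Sparc, H2-Aa and Plac8 the cells at a sum of 3 thus lay nearer to those at 2 than to those at 10 or more in both libraries. Apoe in replicate 2 did not, at 3470 CPM at a sum of 3, 16510 at 2 and 3799 at 10 or more. Median depths at sums of 3, 2 and 10 or more were 2301, 2683 and 4608 UMIs in replicate 1. In replicate 2 they were 3836, 2401 and 3183.5 UMIs.

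**Figure D1:**
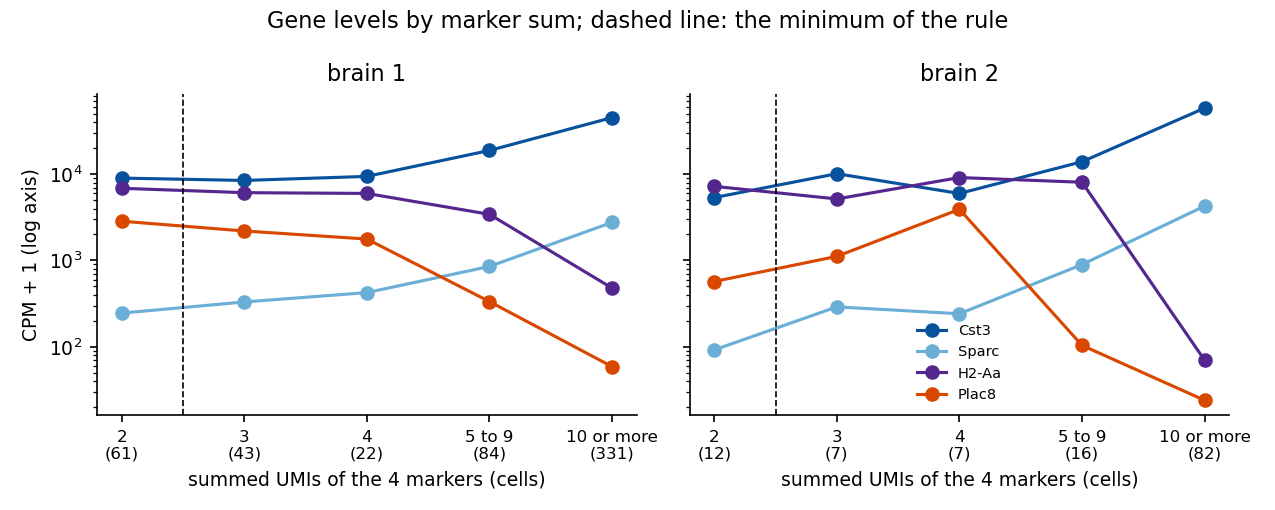
Levels (CPM + 1, log axis) of Sparc, Cst3, H2-Aa and Plac8 in cells binned by the summed UMIs of the 4 marker genes, with the number of cells in brackets; the dashed line is the limit of the rule. From a sum of 2 to 10 or more, Sparc went from 245 to 2762 CPM in brain 1 and from 91.1 to 4269 CPM in brain 2, while H2-Aa and Plac8 were lower in the last bin than in the first.

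The label was checked on 17 microglia markers that the rule did not use. Cst3, a secreted protease inhibitor, stood at 38260 and 44840 CPM in the microglia of replicates 1 and 2. Sall1, the transcription factor that maintains microglial identity, stood at 73.1 and 54.0 CPM. Several defining genes of other cells were at 0: Cd3d, Cd3e, Cd3g, Nkg7, Gzma and Ms4a1 of lymphocytes, Ly6g and Camp of neutrophils, Lyve1 of border macrophages and Clec4f of Kupffer cells had no UMI in the microglia, and the T and NK cell list summed to 5.98 and 7.04 CPM. Other genes of these lists were present: the border macrophage list summed to 191 and 444 CPM, of which Ms4a7 gave 101 and 324 CPM, and the neutrophil list to 147 and 174 CPM, of which Csf3r gave 138 and 167 CPM. Genes of monocyte-derived macrophages were present at a sum of 2654 and 3670 CPM, against 9660 and 8293 CPM in the other brain macrophages defined further on, and Mbp of oligodendrocytes at 185 and 329 CPM against 184 and 121 CPM in the eGFP and Mycl cells. The class as a whole thus held its own markers at high levels, and the cells near the limit carried more of the monocyte and MHC class II genes than the rest.

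To set microglia against another macrophage of the same tumours, cells under the same limits with no UMI of the 4 markers, at least 1 of Csf1r and at least 3 of Tyrobp and Fcer1g were summed as other brain macrophages (95 and 51 cells, of which 74 and 41 were rich in MHC class II). They were deeper, with medians of 7078 and 5711 UMIs, and held some dendritic cell genes such as Ccr7. The dendritic cell list as a whole, which includes the microglia marker Siglech, summed to 710.5 and 979.5 CPM in them. In microglia it summed to more, 1154 and 1350 CPM. UMIs were summed per class and library and compared with edgeR's quasi-likelihood test with the library as a block and Benjamini-Hochberg adjustment over all tested genes. Of 5732 tested genes, 37.5% passed an adjusted p of 0.05, 1071 higher (18.7%) and 1079 lower (18.8%) in microglia, with a median log2 fold change of 0.02 over all tested genes. The fit had 1 residual degree of freedom, so its p-values rest on a spread shared over all genes. DESeq2 called 678 of the same genes (311 higher, 367 lower). Counts of a list below are to be read against these shares. Fewer cells with a gene's RNA and less RNA per cell cannot be told apart in such sums.

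Microglia markers outside the rule stood apart from the other macrophages throughout the list. Under the eGFP and Mycl limit, cells with a marker sum of 1 (86 and 40) or 2 (61 and 12) were in neither class. Genes that vary with the 4 markers could thus be set apart by the choice of cells itself, and how far this went was not tested. Of 17 listed genes, 16 were tested (Csf1r had chosen the comparison cells) and 16 were higher in microglia, with a median log2 fold change of 3.66. Siglech, a sialic acid-binding receptor, was at 422 and 521 CPM in microglia against 6.14 and 0 CPM (log2 fold change 6.60, SE 0.353, adjusted p = 1.58e-73). Sparc was at 2282 and 3229 against 141 and 57.2 CPM. Olfml3, a secreted protein, was at 597 and 909 against 24.6 and 14.3 CPM. The libraries of the classes did not overlap for these genes, as was so, among all tested genes, for 36.9% higher and 26.8% lower in microglia. Slc2a5, the fructose transporter, at chr4:150119283-150144169, had 199 and 298 CPM in microglia and no UMI in the other macrophages of either library, at least 66.6-fold higher when 3 counts are allowed over both libraries of that group.

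**Figure D2:**
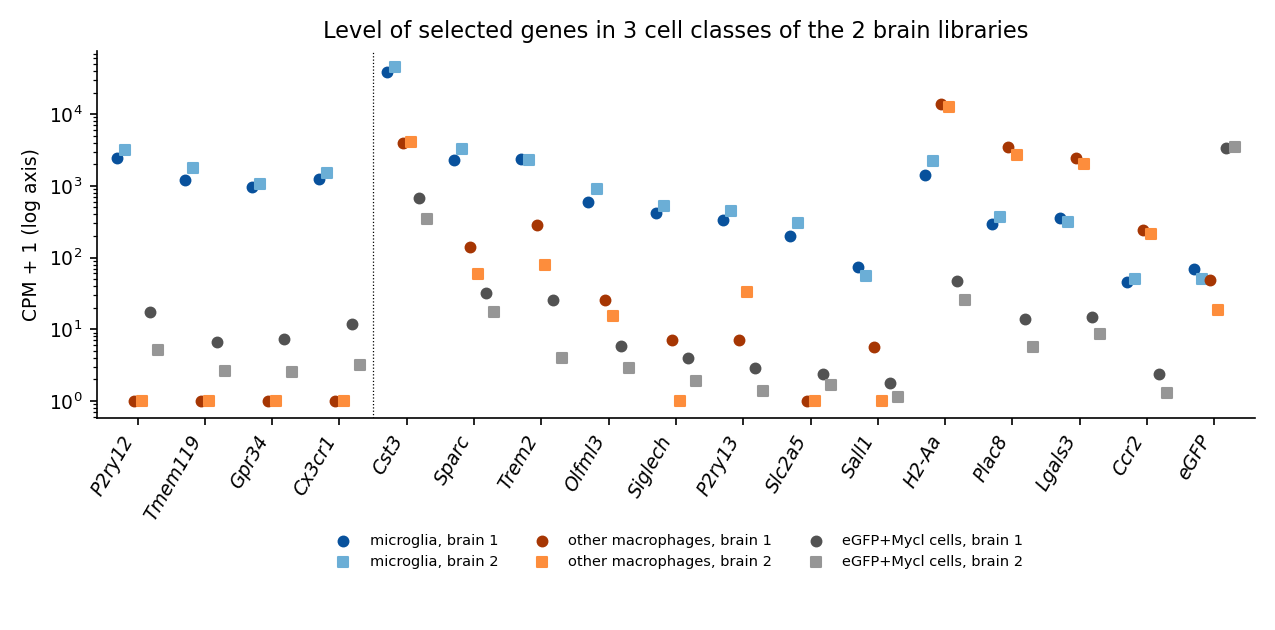
Levels (CPM + 1, log axis) of selected genes in microglia, other macrophages and eGFP and Mycl cells of each brain library; genes left of the dotted line chose the cells. Cst3 to Sall1 lie higher in microglia (Cst3 38260 and 44840 CPM) than in the other macrophages (3990 and 4136 CPM), and H2-Aa to Ccr2 lie lower.

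Transcription factors and growth signals of microglia were mixed. Of 15 listed regulators 12 were tested, of which 7 were higher, 1 was lower and 4 did not pass. Sall1 (73.1 and 54.0 against 4.603 and 0 CPM), Mef2c (384 and 333 against 89.0 and 107 CPM), Mef2a and Irf8 (478 and 629 against 256 and 279 CPM) were higher. The TGF-beta receptors were higher too, Tgfbr1 at 242 and 348 against 47.6 and 64.3 CPM (log2 fold change 2.29, SE 0.228, adjusted p = 3.51e-22) and Tgfbr2 at 87.6 and 75.1 against 27.6 and 21.5 CPM. Spi1, which encodes PU.1, stood at 485 and 456 CPM in microglia and 551 and 601 CPM in the other macrophages and did not pass (adjusted p = 0.0672), nor did Runx1 or the ligand Tgfb1. Nrros, which presents TGF-beta, was lower (log2 fold change -0.60, SE 0.194, adjusted p = 0.00677), but not by DESeq2 (adjusted p = 0.381), after thinning or with equal cell numbers.

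Ligands of Cx3cr1 and Csf1r differed in level. Cx3cl1, the ligand of Cx3cr1, had no UMI in microglia and stood at 0.231 and 0.439 CPM in the eGFP and Mycl cells. Il34, a ligand of Csf1r, had 3 and 0 UMIs in microglia, and Csf1, the other ligand of Csf1r, was at 85.5 and 30.5 CPM in microglia, 16.9 and 0 CPM in other macrophages and 1.75 and 1.21 CPM in eGFP and Mycl cells. Csf1 was higher in microglia than in other macrophages (log2 fold change 2.46, SE 0.384, adjusted p = 1.88e-09). Csf1r itself, part of the choice of the comparison cells, stood at 2385 and 2726 CPM in microglia.

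Receptors with which microglia sense nucleotides and damage were more often higher than not. Of the 15 listed and tested, 10 were higher, none was lower and 5 did not pass, with a median log2 fold change of 1.21. P2ry13 (332 and 439 against 6.14 and 32.2 CPM), P2ry6, the UDP receptor that drives engulfment (330 and 434 against 152 and 147 CPM), Adora3, an adenosine receptor (92.3 and 164 against 7.67 and 17.9 CPM), Entpd1, which breaks down ATP, and Tlr2 (174 and 155 against 36.8 and 32.2 CPM) were among them. P2rx4, P2rx7, Tlr4, Cd14 and Havcr2 did not pass.

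Genes of engulfment, complement and lysosomes were mostly higher in microglia. In the phagocytosis list, 11 of 17 tested genes (19 listed) were higher and 4 lower. Trem2, the lipid-sensing receptor, was at 2384 and 2306 against 279 and 78.6 CPM. The receptor Mertk (96.2 and 84.5 against 13.8 and 21.5 CPM) and its ligands Gas6 (206 and 169 against 33.8 and 42.9 CPM) and Pros1 were higher together. Cd47, a signal that restrains engulfment, was lower at 176 and 247 against 500 and 383 CPM, while its receptor Sirpa was higher at 982 and 876 against 293 and 250 CPM. The complement subunits C1qa, C1qb and C1qc were at 5534 to 10230 CPM in microglia and at 844 to 1165 CPM in the other macrophages, whereas C4b and Cfb were lower, though not by DESeq2 (adjusted p = 0.672 and 0.619). Of 14 lysosomal genes 13 were higher and 1, Cd68, did not pass (774 and 873 against 612 and 615 CPM, adjusted p = 0.0922). Ctsd, a lysosomal protease, was at 12120 and 9322 against 1754 and 1198 CPM.

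Genes that mark microglia in degenerating brain did not move as a block. Of 20 listed genes 18 were tested, of which 11 were higher, 5 lower and 2 not past the threshold. Higher were Cst7, a cathepsin inhibitor (330 and 106 against 43.0 and 21.5 CPM), Cd9 (1630 and 1362 against 238 and 157 CPM), Lpl, which frees fatty acids, Spp1, encoding osteopontin (733 and 338 against 374 and 39.3 CPM), and Apoe (8289 and 6591 against 4444 and 3868 CPM). The libraries overlapped for Spp1. Without the microglia rich in MHC class II, described further on, neither passed: the log2 fold change of Spp1 was 0.24 (adjusted p = 0.943) and that of Apoe -0.05 (adjusted p = 0.862), and that of Spp1 was -0.61 after thinning (adjusted p = 0.402). Lower were the galectin Lgals3 (355 and 310 against 2443 and 2020 CPM), the fatty acid carrier Fabp5, Ccl6, Cd52 and Gpnmb. For Gpnmb the libraries overlapped too: it was at 32.9 and 4.70 CPM in microglia and at 402 and 0 CPM in the other macrophages, so brain replicate 1 alone carried its difference. In the lipid list, 6 of 10 tested genes were higher, among them the cholesterol exporter Abca1 and Lpcat2 (734 and 805 against 99.7 and 82.2 CPM), and the lipid droplet gene Plin2 was lower with Fabp5.

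MHC class II genes and most interferon response genes were lower in microglia. The 7 MHC class II genes were lower, with a median log2 fold change of -2.83. With equal cell numbers in both classes 3 of the 7 were called, and H2-Aa had a log2 fold change of -3.19 (adjusted p = 0.273). H2-Aa stood at 1407 and 2254 CPM in microglia against 14020 and 12450 CPM (log2 fold change -2.99, SE 0.144, adjusted p = 7.9e-90), and Ciita, the factor that switches these genes on, at 9.83 and 16.4 against 107 and 172 CPM. Of 8 tested MHC class I genes 4 were lower and 4 did not pass, with B2m at 6298 and 4994 against 5776 and 4683 CPM, and DESeq2 called 1 of the 8 lower. Of 20 interferon response genes 15 were lower, 1 was higher and 4 did not pass, with a median log2 fold change of -1.19. DESeq2 called 8 of these 20 lower and 1 higher. Ifitm3, a membrane protein that blocks virus entry, was at 547 and 613 against 3661 and 3778 CPM, Irf7 at 141 and 79.8 against 370 and 282 CPM, and Isg15 at 160 and 148 against 331 and 336 CPM. Cxcl10, a chemokine for T cells, was the exception, at 106 and 68.1 against 27.6 and 14.3 CPM (log2 fold change 1.91, SE 0.313, adjusted p = 1.11e-08). MHC class II genes had not been used to choose either class.

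Cytokines divided between the classes. Of 20 listed genes 17 were tested, of which 8 were higher, 5 lower and 4 not past the threshold, with a median log2 fold change of 0.08. Higher in microglia were Il1a (433 and 131 against 18.4 and 42.9 CPM), Tnf (240 and 124 against 38.4 and 3.58 CPM), and the chemokines Ccl12 (1057 and 728 against 46.0 and 236 CPM), Ccl3 (1726 and 603 against 506 and 254 CPM), Ccl4 and Ccl2. Lower were Il1b (525 and 167 against 2136 and 1290 CPM), the neutrophil chemokine Cxcl2 (152 and 30.5 against 1487 and 300 CPM), Ccl8 and Il1rn, the natural blocker of interleukin-1. Il1a and Il1b, which act on the same receptor, thus lay in opposite directions. Without the library block 1 cytokine gene was called higher and 2 lower. Ccl12, Ccl2, Ccl4 and Il1a each lost their call under several other alternatives with the same direction, Ccl12 at adjusted p = 0.0981 by DESeq2 and 0.666 with no filter on low counts.

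Early response genes, which many stimuli are known to induce within minutes, were more often higher than lower. Of 18 listed genes 17 were tested, of which 10 were higher, 3 lower and 4 not past the threshold. Jun (2390 and 1740 against 477 and 440 CPM), Klf2, Egr1 and Fos (4907 and 2031 against 1824 and 1573 CPM) were higher, and Nr4a1 was lower at 223 and 37.6 against 385 and 136 CPM. Without the library block 1 of the 17 was called. Glycolysis genes, a list added with the values known, were lower in microglia in 7 of 7 tested genes, with Gapdh at 942 and 902 against 1355 and 1719 CPM and Ldha at 454 and 495 against 876 and 990 CPM.

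Cell division genes were low in microglia. Of 16 listed genes 5 passed the filter on low counts, which a gene can pass through 1 class alone, and of these 4 were higher than in the other macrophages (Birc5, Cdk1, Ccnb2 and Ube2c) and Top2a did not pass. Cdk1, the kinase that drives entry into mitosis, was at 38.0 and 30.5 CPM in microglia, 7.67 and 3.58 CPM in other macrophages and 174 and 196 CPM in eGFP and Mycl cells. DESeq2 called none of the 5. As a share of the level in eGFP and Mycl cells, Cdk1 stood at 21.8% and 15.6% and Birc5 at 23.96% and 17.8%, against 2.28% and 2.37% for the tumour transcription factor gene Nfib and 5.89% and 6.87% for the neuroendocrine gene Chga. With each cell thinned to 1500 UMIs, at least 3 UMIs of the 16 genes were found in 4.70% (2.93 to 7.09) of 447 microglia of replicate 1 and 3.85% (1.06 to 9.56) of 104 of replicate 2, against 27.8% and 27.6% of the eGFP and Mycl cells. The other macrophages gave 0% (0 to 4.06) of 89 cells and 2.17% (0.0550 to 11.5) of 46 cells, intervals that overlap those of microglia. Before thinning the microglia gave 8.13% and 6.25%. The part of free tumour RNA in these values was not tested.

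**Figure D3:**
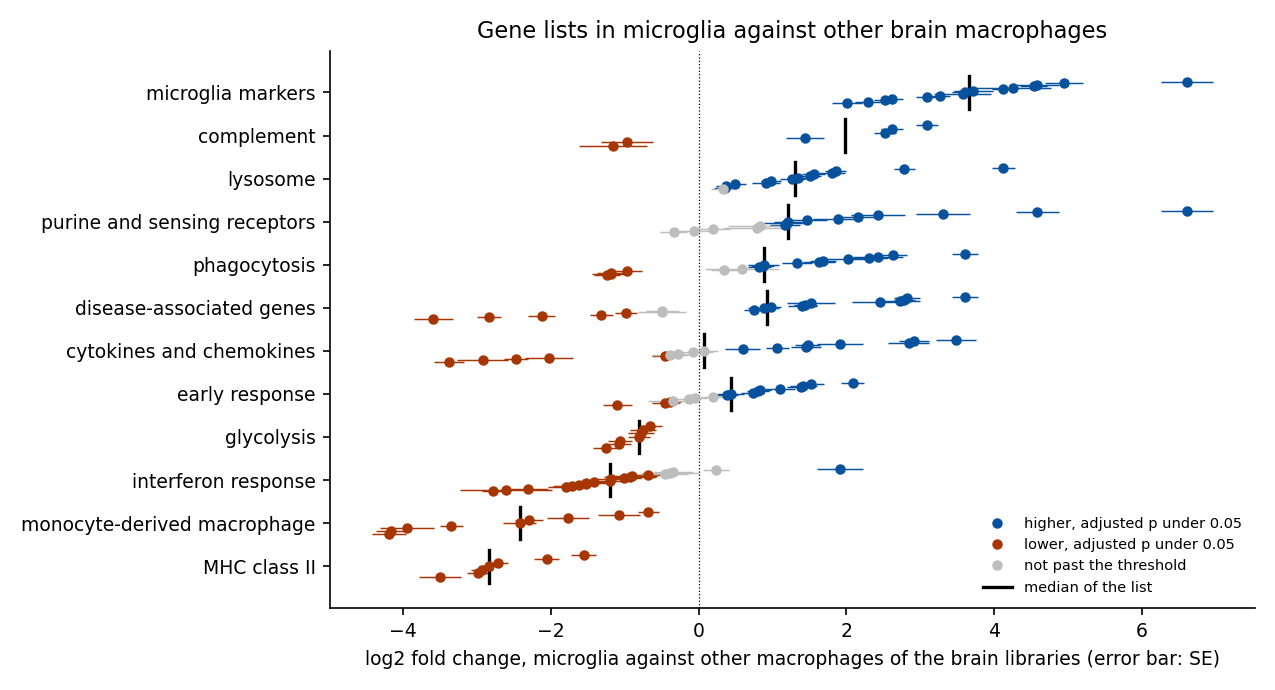
Log2 fold change (point) and SE (bar) of each tested gene of 12 lists in microglia against other macrophages of the brain libraries, with the median of the list as a black line; Slc2a5, with no UMI in the comparison cells, is left out as a point. Medians run from 3.66 for microglia markers to -2.83 for MHC class II, and cytokines, with a median of 0.08, spread to both sides.

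Genes with the largest fold changes were named by a rule on size, level and separation of the libraries. The 12 higher genes had no UMI in the other macrophages of either library, so their folds are lower bounds. After Slc2a5 came Adamts1, a metalloprotease of the matrix (106 and 49.3 CPM, at least 30.2-fold higher), Mlph, which links organelles to motor proteins (65.4 and 93.9 CPM, at least 21.7-fold), the kinase gene Nuak1 (at least 14.3-fold), Csmd3 (at least 13.1-fold) and Nav3 (at least 12.7-fold). Tmem44, Slco4a1, Lrrc3, Gpr155, Dusp27 and Pld1 were at least 8.64- to 10.8-fold higher. DESeq2 gave the same direction for the 24 named genes and no longer called 7 of them.

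The 12 named lower genes included Ccr7 and Cd209a of the dendritic cell list. Of 7 tested genes of that list 4 were lower, 2 were higher and 1 did not pass. Plet1 stood at 0 and 2.35 CPM in microglia and 32.2 and 150 CPM in the other macrophages (log2 fold change -6.74, SE 0.64, adjusted p = 4e-24). Ccr7, which guides dendritic cells to lymph nodes, was at 1.28 and 0 against 132 and 57.2 CPM. Il1r2, the decoy receptor of interleukin-1, was at 3.42 and 0 against 189 and 307 CPM, and Ifitm1 at 33.8 and 21.1 against 1169 and 2241 CPM. The lectins Cd209a and Mgl2, Ramp3, Ffar2, Cygb, Timp1, Traf1 and Itgb7 made up the rest, with log2 fold changes of -6.03 to -5.61. Without comparison cells that held a UMI of 7 dendritic cell genes (75 and 33 cells left), 1517 genes were called and 15 of the 24 named genes were still tested, all 15 past the threshold in the same direction.

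Macrophages outside the brain gave a comparison with another tissue. Liver replicate 2 (22 cells) and subcutaneous replicate 1 (44 cells) held at least 20 macrophages without marker UMIs. Site and cell class cannot be told apart here, and the liver cells held Kupffer cell genes at 10460 CPM in sum against 16.4 CPM in the subcutaneous cells. Of 4391 tested genes edgeR called 13.4%, 316 higher (7.2%) and 271 lower (6.17%) in microglia, with 2 residual degrees of freedom. Libraries did not overlap for 33.0% higher and 22.7% lower. The count, 587, was 298 without brain replicate 1, 330 without brain replicate 2 and 1143 without liver replicate 2.

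The microglia markers outside the rule were again higher, 13 of 16 tested genes, with a median log2 fold change of 3.59, or 3.16 with the 4 genes at 0 in the comparison set at their bound. Here too the comparison cells had been chosen to hold no UMI of the rule's markers. Olfml3 had no UMI in the macrophages of either tumour (at least 66.6-fold higher), nor had Siglech (at least 45.2-fold), Adgrg1, an adhesion receptor (at least 24.7-fold), Slc2a5 (at least 22.1-fold) or Ecscr (at least 20.6-fold). Ak1, Crybb1, Arhgap5, Adora3, Pald1, Tmem100 and the glutamate transporter gene Slc1a3 were at least 9.11- to 16.8-fold higher. Sall1 had no UMI there either. Sparc was at 0 and 8.21 CPM, and Cst3 at 5986 and 4423 CPM (log2 fold change 2.93, SE 0.241, adjusted p = 0.000159). C1qa was nearer, at 6243 CPM in the liver and 2776 CPM in the subcutaneous macrophages against 9179 and 10230 CPM in microglia, and did not pass (adjusted p = 0.0796, edgeR).

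Other groups against macrophages outside the brain were partly called. MHC class II genes were lower in 6 of 7, with H2-Aa at 6319 and 10190 CPM outside the brain, and interferon response genes in 8 of 17 tested, a count that was 17 when liver replicate 2 was left out, 3 when subcutaneous replicate 1 was and 4 when brain replicate 1 was. Spp1 (30.2 and 28.8 CPM outside the brain, log2 fold change 4.15, SE 0.561, adjusted p = 0.00177), Cst7 and Ctsd were higher. Ccl5 was higher in microglia at 623 and 249 against 0 and 4.11 CPM, the lone cytokine called of 15 tested. Without subcutaneous replicate 1 neither Ccl5 (adjusted p = 0.164) nor Cst7 (0.725) passed, and without liver replicate 2 Cst7 did not (0.563). Early response genes overlapped in their summed levels, 22920 and 11960 CPM in microglia and 11290 and 16210 CPM outside the brain, with 1 of 17 called. Named lower genes were Chil3, Ear1, Ear2, Cd300e, Folr2, Cd209a, Cd209f, Clec10a, Mgl2, Clec4b1, S100a8 and the B cell chemokine gene Cxcl13 (30.3 and 9.39 against 968 and 620 CPM). The 2 comparisons share the microglia, so their values are set side by side and not counted as support for each other.

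Genes differed in how evenly the microglia carried them. Among genes with a mean of at least 0.1 UMI per cell thinned to 1500 UMIs, the 30 with the highest ratio of variance to mean in each library shared 20 genes. Those were H2-Aa, H2-Ab1, H2-Eb1, Cd74, Ccl3, Ccl4, Ccl5, Ccl12, Spp1, Apoe, Lyz2, Plac8, Ifitm3, Ifi27l2a, Cst3, Ctsb, Ctsd, Ftl1, Tmsb4x and Actb. A high ratio did not by itself mean few carriers: Cst3 and Tmsb4x had a UMI in 99.0% to 100% of cells, at means of 26.3 to 80.3 UMIs. Spp1 had a UMI in 8.501% and 3.85% of cells. The 10% of cells with the most H2-Aa held 95.4% and 92.3% of its UMIs, against 27.0% and 24.9% for Cst3.

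MHC class II came from a minority of the cells that met the microglia rule. Cells with at least 3 UMIs of H2-Aa, H2-Ab1 and H2-Eb1 that made up at least 0.1% of their UMIs numbered 55 of 480 (11.5%, 8.75 to 14.7) and 16 of 112 (14.3%, 8.39 to 22.2), and held 92.8% and 96.5% of the class II UMIs of all microglia. Their median marker sum was 7 and 5 UMIs and their median depth 8097 and 5636 UMIs, against 27 and 30 marker UMIs and 4080 and 3074 UMIs in the other microglia. This division was made with the values known and is a description. As it used class II UMIs, the share of these UMIs in the rich cells follows in part from the definition. Among cells of at least 1500 UMIs, those rich in class II (53 and 16) carried P2ry12 at 610 and 330 CPM, Plac8 at 1542 and 1528 CPM, Ccr2, the receptor that brings monocytes into tissue, at 248 and 217 CPM, Apoe at 18230 and 18770 CPM and Lyz2, lysozyme, at 4446 and 7009 CPM. The same cells held Ly6c2 at 135 and 144.5 CPM and Ms4a7 at 373.5 and 1414 CPM, with Sparc at 834 and 237 CPM and Sall1 at 21.7 and 0 CPM. In the remaining microglia of that depth Ccr2 and Ly6c2 had no UMI and Plac8 stood at 0 to 32.6 CPM. The class II rich cells are called microglia here by the rule alone, and whether they derive from monocytes was not tested. Doublets were not called, and their part in these cells was not tested. With the class II rich cells left out, 2130 genes were called against other brain macrophages, 2014 of them among the 2150 called with them.

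Early response genes split the microglia, most plainly in replicate 1. Of 447 cells thinned to 1500 UMIs there, 148 had 5 or fewer UMIs of the 18 genes, 28 had 6 to 19 and 271 had 20 or more, with 136 cells under 3 and a highest count of 143. Replicate 2 gave 20, 38 and 46 of 104 cells and a highest count of 55. From 4 to 7 UMIs there were 8 and 4 cells, and from 18 to 21 UMIs 9 and 10 cells. The limits were set after seeing this distribution, so what follows is a description of cells in 2 libraries with no test.

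**Figure D4:**
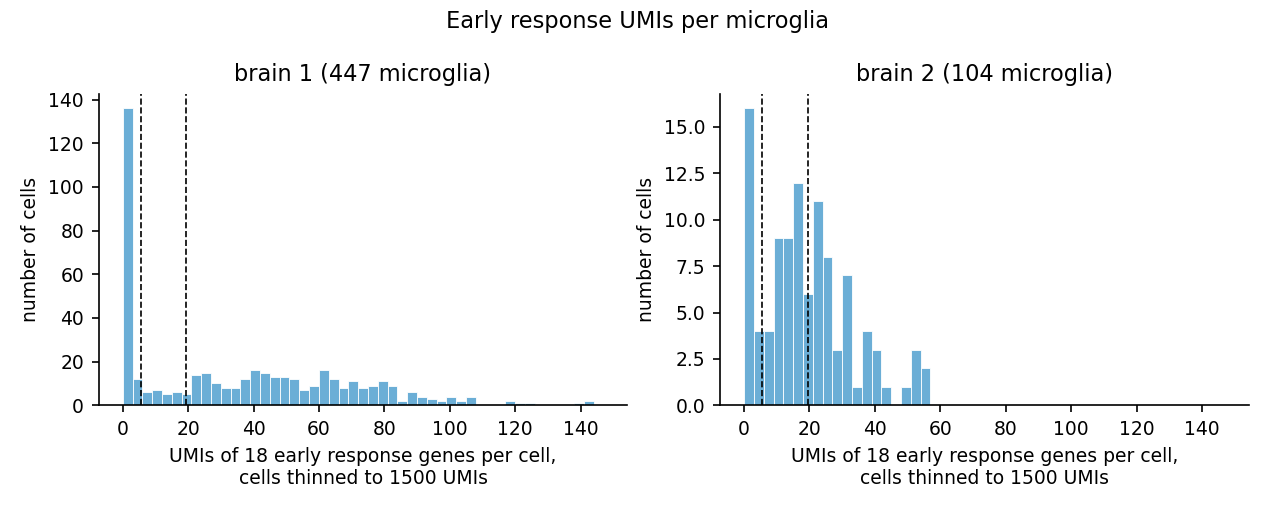
Number of microglia by their UMIs of 18 early response genes, each cell thinned to 1500 UMIs; dashed lines mark 5 and 20 UMIs. Brain 1 has a peak at 0 to 2 UMIs (136 of 447 cells), few cells from 6 to 19 (28) and a broad range up to 143, and brain 2 has 16 of 104 cells at 0 to 2 and most others between 6 and 55.

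Leaving aside class II rich cells, the early-low microglia (5 or fewer UMIs, 136 and 17 cells) and the early-high microglia (20 or more, 240 and 43 cells) differed in many other genes. Levels are those of the whole cells, not thinned. Early-low cells had lower levels of the surveying genes: P2ry12 at 1141 and 947 CPM against 3609 and 4710 CPM, Tmem119 at 303 and 536 against 1858 and 2844 CPM, Cx3cr1 at 438 and 500 against 1773 and 2029 CPM, and Siglech at 206 and 250 against 613 and 848 CPM. Among the 17 markers outside the rule, 14 were higher in early-high cells in both libraries and 1 was lower. The share over all genes was taken from 8122 genes with at least 20 UMIs summed over all microglia of that depth, class II rich cells included. Of these, 3928 (48.4%) were higher in early-high and 1523 (18.75%) in early-low cells in both libraries. In replicate 2 the early-low cells held 55969 UMIs and the early-high cells 153296, so for genes with few UMIs these shares depend on depth.

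Disease-associated genes lay higher in the early-low cells. Of 19 measured genes of that list 16 were higher in early-low cells in both libraries, counting Apoe, which was nearly level in replicate 2: Spp1 at 563 and 2394 against 35.9 and 52.2 CPM, Cst7 at 848 and 643 against 103 and 32.6 CPM, Lpl at 160 and 286 against 12.8 and 26.1 CPM, Lgals3 at 704 and 500 against 45.5 and 117 CPM, and Cd52 at 1668 and 1912 against 514 and 346 CPM. Apoe was higher in early-low cells of replicate 1 (7775 against 5188 CPM) and level in replicate 2 (3698 against 3692 CPM). The 7 measured glycolysis genes, a list added with the values known, were also higher, with Gapdh at 1820 and 2394 against 552 and 502 CPM. So were 15 of 20 interferon genes and 10 of 16 cell division genes. Those 10 cell division genes had 1 (Nusap1 and Top2a) to 7 (Ccnb2) UMIs each in the early-low cells of replicate 2. These 17 cells held 55969 UMIs in all, so the count of cell division genes rests on few UMIs. The class II rich cells, set aside here, held Spp1 at 3287 CPM in replicate 1 and 10.3 CPM in replicate 2, so the libraries differed in which cells carried it. In replicate 2 only 3.85% of the thinned microglia had a UMI of Spp1. The 134 UMIs of Spp1 in its early-low cells thus came from few cells. Ccl5 stood at 937 and 911 against 111 and 0 CPM. Class II genes, whose rich cells had been set aside, were at sums of 713 and 750 against 684 and 424 CPM.

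Cytokine genes lay on both sides, 9 of 20 higher in early-high and 4 in early-low cells in both libraries. Over all genes these shares were 48.4% and 18.75%, which depend on depth for genes with few UMIs, and the list as a whole stood near them. Ccl4 was at 3530 and 920 CPM in early-high against 470 and 35.7 CPM in early-low cells. Ccl3 was at 2396 and 770 against 241 and 17.9 CPM, and Tnf at 367 and 202 against 35.3 and 0 CPM, while Cxcl16 was at 218 and 144 against 391 and 357 CPM. Csf1r was at 3436 and 4077 against 999 and 1143 CPM.

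Depth and other cell types moved with this division to some extent. Early-low cells had median depths of 2797 and 2303 UMIs against 4602 and 3267, median marker sums of 8 and 7 against 44 and 38, and median mitochondrial shares of 2.82% and 3.53% against 2.44% and 2.10%. Monocyte-derived genes summed to 3027 and 5235 against 1027 and 1285 CPM, of which Lyz2 gave 2890 and 5003 CPM, while Ccr2 and Ly6c2 had no UMI in either. Endothelial genes summed to 297 and 143 against 160 and 183 CPM, astrocyte genes to 49.9 and 340 against 165 and 189 CPM, and tumour genes to 345 and 554 against 380 and 268 CPM. The part of depth and of RNA from other cells in the division was not tested.

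**Figure D5:**
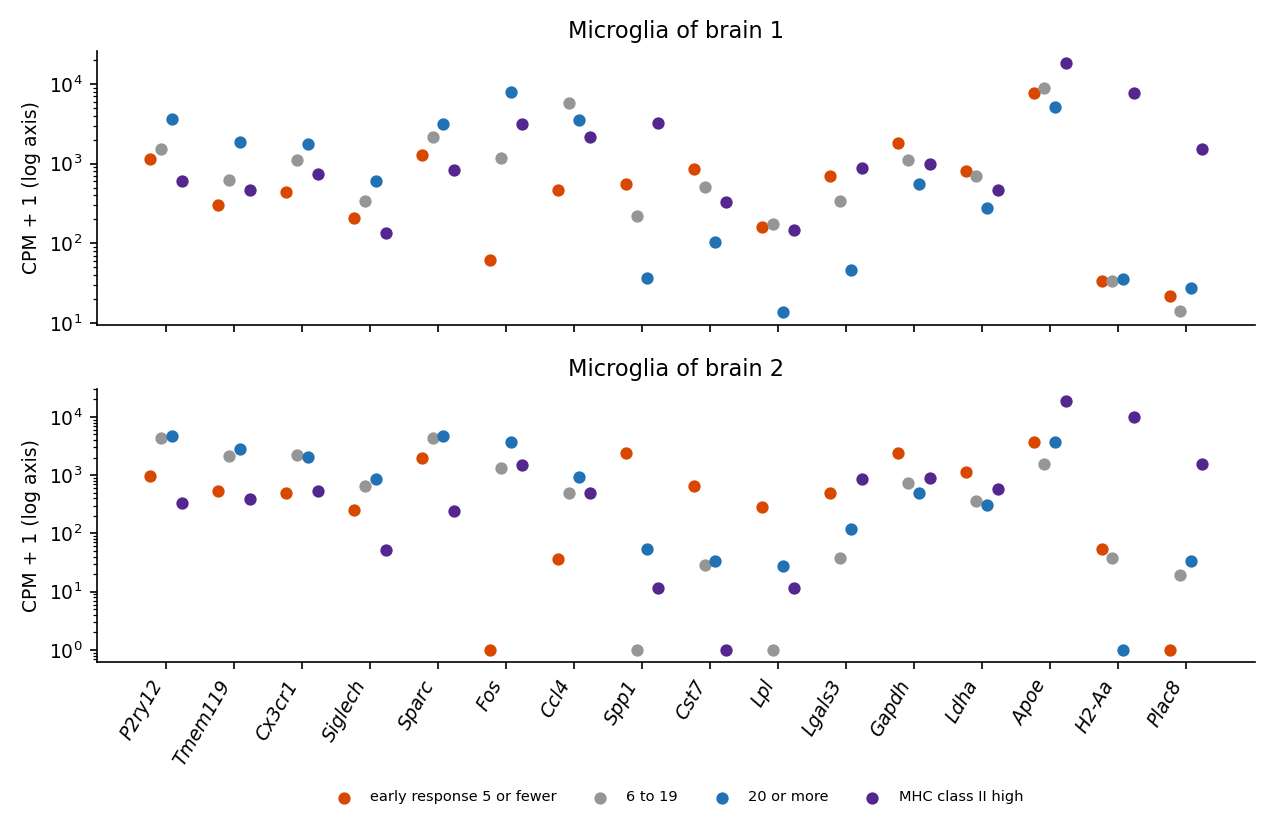
Levels (CPM + 1, log axis) of 16 genes in microglia divided by early response UMIs (5 or fewer, 6 to 19, 20 or more) and, apart from these, microglia rich in MHC class II, for each brain library. P2ry12 is lower and Spp1, Cst7, Lgals3 and Gapdh are higher at 5 or fewer than at 20 or more UMIs in both libraries. H2-Aa, whose UMIs helped to choose the class II rich cells, and Plac8 are high only in those cells.

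The microglia of the 2 brain libraries differed in the same genes. With 1 library each there is no test between them. Summed early response genes were at 22920 CPM in replicate 1 and 11960 CPM in replicate 2, and cytokines at 9145 and 4144 CPM. Atf3, a stress-induced factor, was at 969 and 185 CPM and Ccl4 at 2746 and 575 CPM. The other brain macrophages differed in the same direction, with early response genes at 13250 and 8794 CPM and cytokines at 7270 and 4275 CPM. At least 10 cytokine UMIs after thinning were found in 39.8% (35.3 to 44.5) and 22.1% (14.6 to 31.3) of microglia, and at least 20 early response UMIs in 60.6% (55.9 to 65.2) and 44.2% (34.5 to 54.3), so these intervals, which cover counting error only, did not overlap. Before thinning the cytokine shares were 64.0% and 50.9%, but the early response shares were 63.3% and 69.6%, in the opposite order, so no order is read from that share. At least 10 interferon UMIs were found in 10.3% (7.63 to 13.5) and 11.5% (6.11 to 19.3), with overlapping intervals.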

How the data were processed

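Droplet 3' RNA libraries of 8 allografts (2 brain, 3 liver, 3 subcutaneous) were used. The authors deposited whole-number UMI counts per gene and cell, from Cell Ranger version 3.0.0 per the file headers, with Cell Ranger, STAR and mm10 named in the submitters' processing notes. The tables hold 22056 genes, with 22029 (99.9%) placed on GENCODE M21 (GRCm38). Deposited UMIs totalled 27140735 in brain replicate 1 and 40564657 in replicate 2, and the microglia held 2339801 and 425883 of them.

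Cells were chosen by the limits given above. Doublets were not called. Members, gene lists and tests were chosen with earlier results of these data known, and ligands, their receptors, glycolysis and the divisions within microglia after the values were seen.

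Counts were summed per class and library and compared with edgeR 4.0.16 in R 4.3.3 (TMM, filterByExpr, robust quasi-likelihood). The comparison had been planned apart for macrophages rich and poor in MHC class II, but the poor class held 10 cells in brain replicate 2, under the minimum of 20, so both were merged. Both classes of a library come from the same tumour, which is the pairing behind the library block. The replicates are labelled as separate allografts, and p-values rest on 2 brain libraries. The genes that chose cells (P2ry12, Tmem119, Gpr34, Cx3cr1, eGFP, Mycl, Csf1r, Tyrobp, Fcer1g) stayed out of the calls. Some listed genes are not reported here by name, though the lists' counts include them.

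Named genes are, per direction, up to 12 past the threshold taken by size of fold change, with a mean of at least 20 CPM in the higher group, libraries that do not overlap, and a lower level in the eGFP and Mycl cells than in that group, besides members of the lists. Alternatives covered DESeq2 1.42.0, filters, the block, gates, thinning, equal cell numbers and left-out libraries, and 4 chosen after seeing the data. On simulated counts with 200 changed genes and a dispersion of 0.1 the brain comparison (5675 genes tested) recovered 50% of 4-fold and 2% of 2-fold changes with 5.45% false calls, and the comparison outside the brain (4130 genes) 66%, 7% and 1.35%. The fits to the real counts had a smaller spread (square root of the dispersion), 10.6% in the brain and 21% outside it. The simulated rates are thus not those of the tests reported.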

Additional observations from a re-analysis of the deposited data

How the results depend on the processing

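Against other brain macrophages, 2150 genes were called, 678 by DESeq2, 767 of 2208 tested after thinning cells to 1500 UMIs, 1616 with no replicate block and 1517 to 2210 under the other alternatives run, 3 of them chosen after seeing the data. Leaving out either brain library leaves no residual degrees of freedom, so only fold changes were computed, and the 24 named genes kept their direction. Against macrophages outside the brain, 587 genes were called, 366 by DESeq2, 296 after thinning, 630 with the replicate number as a replicate block (a number that only names these samples), 862 of 13550 tested with no filter, and 298 to 1143 when each library was left out. None of the genes named by size reversed in the alternatives in which it was tested, which after thinning were 6 of 24 in the brain and 15 of 24 outside it. Of 169 list genes called in the brain, 58 lost their call by DESeq2, 43 with no replicate block and 5 to 23 under the other alternatives. Those that changed sign were Spp1 after thinning (-0.61), Apoe without class II rich members (-0.05), and Npc2 (-0.02) and Psap (-0.03) without comparison cells holding dendritic cell UMIs. With brain replicate 1 or 2 left out, the log2 fold changes were 0.85 and -3.64 for Gpnmb, -0.03 and 0.78 for Osm, -0.26 and 0.79 for Atf3, and 0.24 and -2.16 for Ly6c2. Of 70 called outside the brain 1 to 26 lost their call and none changed sign. State shares, as means of the 2 brain libraries, depended on depth and on the gate. Cell division was 4.27%, 7.19% without thinning, 3.49% at a marker sum of 5 or more and 2.90% at 1 UMI more. Interferon was 10.9%, and 28.8%, 6.95% and 9.51% under the same changes. MHC class II was 12.4%, 16.2% without thinning and 8.30% at a marker sum of 5 or more. Cytokines were 31.0% and early response 52.4%, against 57.4% and 66.5% without thinning. Thinning tested fewer genes and fewer cells, and the cause of the other differences was not tested. The share of microglia, 8.38% ± 8.26 (SD, n = 2), ran from 6.74% to 9.42% over 8 gates. With 425883 UMIs in the microglia of brain replicate 2 and 66153 in the macrophages of liver replicate 2, a gene at 10 CPM rests on few UMIs there.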

Other observations

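Genes of matrix and vessel growth, not described above, were divided in the microglia. Of 17 listed genes 13 were tested against other brain macrophages, of which 4 were higher and 7 lower. Pdgfb, a growth factor for pericytes, was at 51.3 and 44.6 CPM against 7.67 and 7.15 CPM, and the gelatinase gene Mmp2 at 48.3 and 25.8 against 7.67 and 0 CPM. Lower were Tgfbi, a matrix protein (207 and 218 against 965 and 708 CPM), Thbs1, an inhibitor of vessel growth (12.4 and 7.04 against 115 and 35.8 CPM), Mmp12, Fn1, Plaur, Mrc1 and Cd274, which encodes PD-L1 (11.1 and 14.1 against 39.9 and 32.2 CPM). DESeq2 called 1 higher and 2 lower of the same 13. Vegfa was at 1.71 and 4.70 CPM in microglia, Mmp9 had no UMI there and Arg1 had none.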
